A study of Mus musculus with 4 samples.

Results

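Slc11a1, Catip, Catsperz, Ppp1r14d, Myo1f, Cd37, Nkx6-3 and Inhbb are 8 of the 32285 genes of a single-cell count matrix of mouse embryonic stem cells (mESC). They were picked because their levels are higher in the libraries numbered 1 and 3 than in those numbered 2 and 4. The levels per library are therefore given as a description only. E14tg2a.4, a male mESC line, and a derived line carrying a heterozygous gene-trap truncation of Srrm2 (Srrm2 hKO, line CG0630 of the Sanger gene-trap collection), were grown with LIF and profiled by droplet sequencing of transcript 3′ ends. There were 2 WT samples and 2 Srrm2 hKO samples from independent experiments, all on gelatin, with 24 h or 72 h in serum-free LIF medium according to the labels and another single length according to the methods of the study. Srrm2 encodes a large spliceosomal protein, and the gene-trap cells keep 1 intact copy. The 4 libraries are known only by the number that ends each cell barcode, and neither the labels nor the files tie a number to a WT or Srrm2 hKO sample. No library was assigned to a genotype, so the 8 genes were compared between numbered libraries and between cells inside each library, without p-values.

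Mouse embryonic stem cells in LIF move between a naive state, held by factors such as Nanog, Klf4, Esrrb and Tfcp2l1, and a formative state that raises Fgf5, Pou3f1 and Otx2. Tbx3, a T-box repressor, belongs to the naive network and varies strongly between cells of the same culture. None of the 8 genes is a classical pluripotency factor. Slc11a1 (a metal ion transporter of phagosomes), Myo1f (a class I myosin) and Cd37 (a tetraspanin) are known from leukocytes. Catip (a partner of the cilium protein TTC17) and Catsperz (a subunit of the sperm calcium channel CatSper) are known from cilia and sperm. Inhbb encodes the beta B chain of activin B and inhibin B, Ppp1r14d an inhibitor of protein phosphatase 1, and Nkx6-3 a homeobox factor of the stomach.

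After the cell filter was applied as the methods of the study state it, 31989 of 41142 barcodes were kept, with 7464 to 8514 cells and medians of 18378 to 21898 unique molecular identifiers (UMIs) per cell in a library. The number kept is somewhat above the total of cells that the study gives after its quality control, and the cause was not tested. Levels are UMIs of a gene per 1000000 UMIs of the kept cells (CPM), with exact 95% Poisson intervals in parentheses. A floor of 3 counts corresponds to 0.015 to 0.018 CPM. The exact interval of a count of 0 reaches somewhat above that floor. Intervals cover counting error only and not the variation between cultures. Between 11 and 26 barcode sequences were kept in both libraries of a pair, and leaving out the 211 cells concerned moved no level of the 8 genes past its interval. Srrm2 itself stood at 387, 533, 238 and 356 CPM in libraries 1 to 4, an order that does not set libraries 1 and 3 above the others. These values come from 3′ tags of a gene with an intact second copy, so they were not used to assign a genotype.

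All 8 genes were low in every library, from 16.3 CPM for Ppp1r14d in library 1 to 0.264 CPM for Catsperz and Nkx6-3 in library 4. Slc11a1 stood at 9.48, 0.759, 2.95 and 0.431 CPM in libraries 1 to 4 (95% intervals 9.01 to 9.96, 0.643 to 0.89, 2.7 to 3.22 and 0.339 to 0.54). Catip stood at 6.53, 0.53, 3.31 and 0.385 CPM in libraries 1 to 4 (95% intervals 6.15 to 6.93, 0.434 to 0.64, 3.05 to 3.6 and 0.298 to 0.489). In both genes library 1 was highest, library 3 came next, and libraries 2 and 4 lay far below, with overlapping intervals for Catip only. Catsperz measured 7.05, 0.629, 1.76 and 0.264 CPM in libraries 1 to 4 (95% intervals 6.66 to 7.47, 0.524 to 0.749, 1.57 to 1.97 and 0.193 to 0.353). Ppp1r14d measured 16.3, 1.26, 8.99 and 1.33 CPM in libraries 1 to 4 (95% intervals 15.7 to 16.9, 1.11 to 1.43, 8.55 to 9.45 and 1.16 to 1.51), so that its 2 lowest libraries could not be ordered. Ppp1r14d was the most abundant of the 8 genes in library 1 and in library 3.

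Myo1f reached 10.9, 1.71, 7.69 and 0.678 CPM in libraries 1 to 4 (95% intervals 10.4 to 11.4, 1.53 to 1.9, 7.28 to 8.12 and 0.561 to 0.812). Inhbb reached 11.1, 1.93, 6.33 and 0.73 CPM in libraries 1 to 4 (95% intervals 10.6 to 11.6, 1.74 to 2.13, 5.96 to 6.72 and 0.608 to 0.868). Both genes had 4 libraries with separate intervals in the order 1, 3, 2 and 4, as did Nkx6-3, Slc11a1 and Catsperz. Nkx6-3 was found at 4.1, 0.724, 2.3 and 0.264 CPM in libraries 1 to 4 (95% intervals 3.8 to 4.42, 0.611 to 0.852, 2.08 to 2.54 and 0.193 to 0.353). Cd37 was found at 2.4, 0.47, 3.31 and 0.316 CPM in libraries 1 to 4 (95% intervals 2.17 to 2.65, 0.379 to 0.575, 3.04 to 3.59 and 0.238 to 0.411). Cd37 was the only one of the 8 genes with more CPM in library 3 than in library 1, and its intervals in libraries 2 and 4 overlapped. The lower level of libraries 1 and 3 exceeded the higher level of libraries 2 and 4 by 2.8-fold (2.27 to 3.48) for Catsperz, the smallest gap, and by 6.77-fold (5.9 to 7.81) for Ppp1r14d, the widest.

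**Figure D1:**
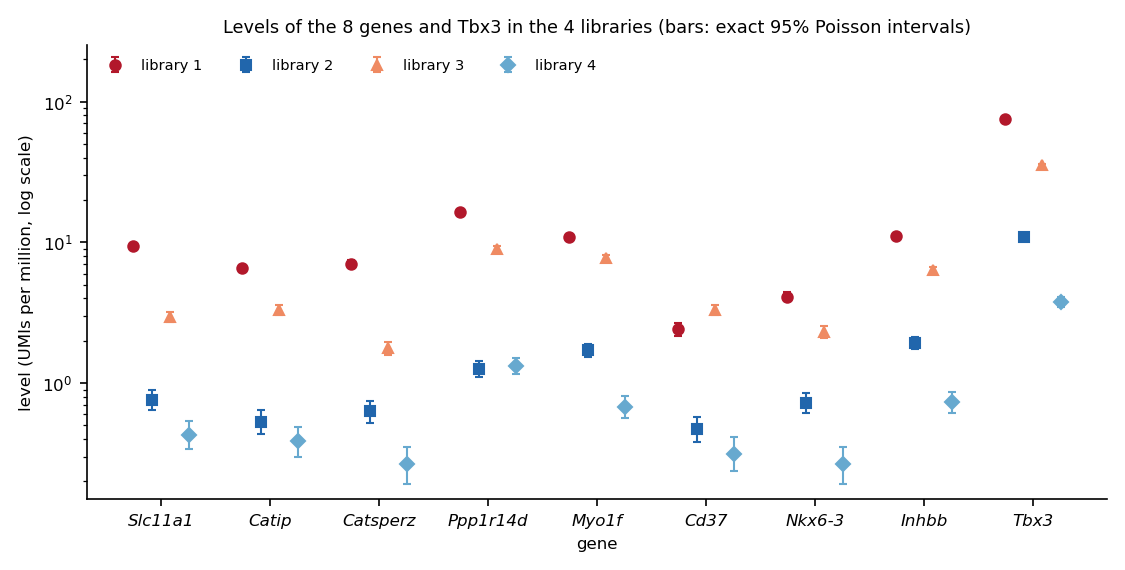
Level of each of the 8 genes and of Tbx3 in libraries 1 to 4, in CPM on a log scale. Points are library totals over kept cells and bars are exact 95% Poisson intervals. Libraries 1 and 3 lie above libraries 2 and 4 for every gene drawn, and Cd37 is the only gene with library 3 on top.

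Because the library levels chose the genes, their count says nothing further, but it can be placed among all genes. Of 15822 genes with at least 100 UMIs, 265 (1.67%) had levels in libraries 1 and 3 that were each at least 2-fold those in libraries 2 and 4, and 24.2% had them higher by any amount. All 8 genes passed the 2-fold limit, at ranks 6 (Ppp1r14d), 8 (Catip), 15 (Cd37), 23 (Myo1f), 35 (Slc11a1), 55 (Inhbb), 63 (Nkx6-3) and 96 (Catsperz) by the size of the gap. The opposite pattern, libraries 2 and 4 each at least 2-fold above libraries 1 and 3, was met by 435 genes. Libraries 3 and 4 stood at least 2-fold above the other two in 289 genes, whereas 0 genes had libraries 1 and 4 on top by that margin.

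Tbx3 followed the same order of libraries at a higher level, with 75.2, 10.9, 35.2 and 3.76 CPM in libraries 1 to 4 and a gap of 3.21-fold (3.06 to 3.38). The step from library 3 to library 1 separated the 8 genes. The level in library 1 over that in library 3 was 4.0-fold (3.52 to 4.55) for Catsperz and 3.21-fold (2.9 to 3.55) for Slc11a1. It was 1.42-fold (1.32 to 1.52) for Myo1f and 0.727-fold (0.638 to 0.828) for Cd37, with Catip, Ppp1r14d, Nkx6-3 and Inhbb between 1.75 and 1.97. Between the low libraries, the level in library 2 over that in library 4 was 2.74-fold (1.95 to 3.91) for Nkx6-3, 2.64-fold (2.16 to 3.26) for Inhbb and 2.52-fold (2.04 to 3.13) for Myo1f. For Ppp1r14d it was 0.952-fold (0.794 to 1.14), and for Tbx3 2.91-fold (2.67 to 3.18).

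To find how the UMIs were spread over cells, each cell was thinned to 5000 UMIs, which left out none of the kept cells. The share of cells with a UMI was 8.03%, 0.611%, 4.54% and 0.723% in libraries 1 to 4 for Ppp1r14d, 5.26%, 0.869%, 3.1% and 0.348% for Inhbb and 4.67%, 0.951%, 3.81% and 0.255% for Myo1f. For Cd37 the shares were 1.34%, 0.247%, 1.88% and 0.201%. Without thinning, 25.9% of the cells of library 1 and 2.89% of those of library 2 had a UMI of Ppp1r14d. The shares were close to those that a Poisson spread of the same UMIs over all cells would give: 8.03% against 8.16% for Ppp1r14d in library 1, and 5.26% against 5.31% for Inhbb. At so few UMIs per cell these shares lie close for uneven spreads too, so the match does not show an even spread over cells. Slc11a1 in library 1 departed furthest, with 4.15% of cells (3.73 to 4.61, exact binomial interval) against 4.8% for a Poisson spread, a variance of 1.34 times the mean and up to 10 UMIs in 1 cell.

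At that depth 5954 of 8118 cells of library 1 had none of the 8 genes, 1797 had 1, 329 had 2, 33 had 3 and 5 had 4. Cells with 2 of the genes made up 4.05% of library 1, where the product of the single shares gives 3.38%, and 1.7% of library 3, where it gives 1.26%. In library 2 only 9 cells had 2 of the genes and in library 4 only 2.

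The upstream sequences of the genes were examined because the 8 genes have libraries 1 and 3 on top together. RefSeq gives a start for 7 of them on GRCm38.p6, and the bases from 250 to 51 before that start are printed 5′ to 3′ for the 2 neighbours Catip and Slc11a1, which were detected together in cells, and for Inhbb, whose window differed most in base composition. Capitals mark a match to a searched motif on either strand.
Slc11a1 (chr1:74374953-74375152, plus strand): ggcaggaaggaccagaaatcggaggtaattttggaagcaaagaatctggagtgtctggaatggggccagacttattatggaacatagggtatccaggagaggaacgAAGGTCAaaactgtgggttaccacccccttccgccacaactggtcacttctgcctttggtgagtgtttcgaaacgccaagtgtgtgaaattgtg
Catip (chr1:74361885-74362084, plus strand): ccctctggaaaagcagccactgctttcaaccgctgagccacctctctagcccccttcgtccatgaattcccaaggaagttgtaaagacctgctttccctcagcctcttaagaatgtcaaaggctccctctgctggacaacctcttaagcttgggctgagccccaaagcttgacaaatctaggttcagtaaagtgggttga
Inhbb (chr1:119422299-119422498, minus strand): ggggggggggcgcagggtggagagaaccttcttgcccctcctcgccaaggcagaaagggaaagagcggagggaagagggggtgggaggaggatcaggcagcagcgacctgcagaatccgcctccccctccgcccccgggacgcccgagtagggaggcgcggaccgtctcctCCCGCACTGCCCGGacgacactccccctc
The capitals in Slc11a1 are AAGGTCA, the half-site bound by ESRRB, 144 to 138 bases before the start, which 3.37% of 32817 mouse windows of the same length held. Those in Inhbb are a match to the TFCP2L1 motif, 2 copies of CCNG with 6 bases between them, which 19.6% of windows held. The T-box half-site GGTGTGA (2.72% of windows), the KLF motif GGGTGTG (5.46%), the STAT motif TTCNNNGAA (5.76%), the POU octamer ATGCAAAT (1.32%) and the TATA motif TATAAA (9.14%) were found in none of the 7 windows. The E-box CACGTG was found in Cd37 alone (4.34% of windows). The Cd37 window (chr7:45238890-45239089), set by the RefSeq start, lies inside the gene as GENCODE places it (chr7:45233632-45239115, minus strand). No searched motif was therefore shared by 2 of the genes within these windows. Bases closer to the start than 51 were not searched, so absence of a motif there, such as the TATA motif, was not tested. Inhbb held 15 CpG and 71% G and C, against medians of 4 and 51.5% over all windows and 1 to 5 CpG in the other 6 genes.

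The libraries also differ in how many naive cells they hold and the levels are also given at matched naive content, as a description, since the same libraries chose the genes. Naive content was the number of UMIs from 9 naive genes (Nanog, Klf2, Klf4, Klf5, Esrrb, Tfcp2l1, Zfp42, Nr5a2 and Prdm14, without Tbx3) among 5000 UMIs of a cell. The list amounted to 1855, 1564, 1367 and 928 CPM in libraries 1 to 4, with library 2 above library 3, so the list as a whole did not follow the order of the 8 genes. Single genes of the list did, by less than 2-fold: Klf4 (167, 105, 107 and 48.5 CPM), Klf5 (271, 182, 200 and 158) and Prdm14 (8.73, 4.25, 4.9 and 1.85). Nanog, Klf2, Esrrb, Tfcp2l1, Zfp42 and Nr5a2 were higher in library 2 than in library 3. In cells with 9 to 11 naive UMIs, Catip stood at 7.59, 0.313, 4.46 and 0.0955 CPM, the last from 2 UMIs. Ppp1r14d stood at 17.7, 1.12, 11.6 and 1.24 CPM in the same cells, and Inhbb at 12, 2.52, 8.63 and 1.53 CPM.

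In cells with 0 to 2 naive UMIs Cd37 had 4, 12, 20 and 20 UMIs in libraries 1 to 4, with library 3 over library 4 at 2.03-fold (1.03 to 3.97) and library 1 over library 2 at 1.16-fold (0.274 to 3.84). In the same cells library 3 over library 4 was 1.54-fold (0.753 to 3.1) for Slc11a1, 1.79-fold (0.977 to 3.27) for Catip and 1.77-fold (0.801 to 3.87) for Catsperz. Here the intervals of libraries 1 and 3 were clear of those of libraries 2 and 4 for 3 of the 8 genes (Ppp1r14d, Myo1f and Inhbb). This count uses the contrast that chose the genes and has no share over all genes beside it. Library 1 over library 2 in cells with 12 or more naive UMIs was 15-fold (10.4 to 22.4) for Slc11a1 and 13.7-fold (10.3 to 18.6) for Ppp1r14d. It was 4.63-fold (3.78 to 5.72) for Inhbb and 3.89-fold (2.82 to 5.49) for Nkx6-3.

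Libraries 1 and 3 came together at high naive content for Myo1f, at 11.6 and 11 CPM, a fold of 1.05 (0.913 to 1.22). They stayed apart for Catsperz, at 2.84-fold (2.17 to 3.76), and for Slc11a1, at 2.36-fold (1.93 to 2.9). Cd37 remained lower in library 1 than in library 3, at 0.613-fold (0.477 to 0.789).

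**Figure D2:**
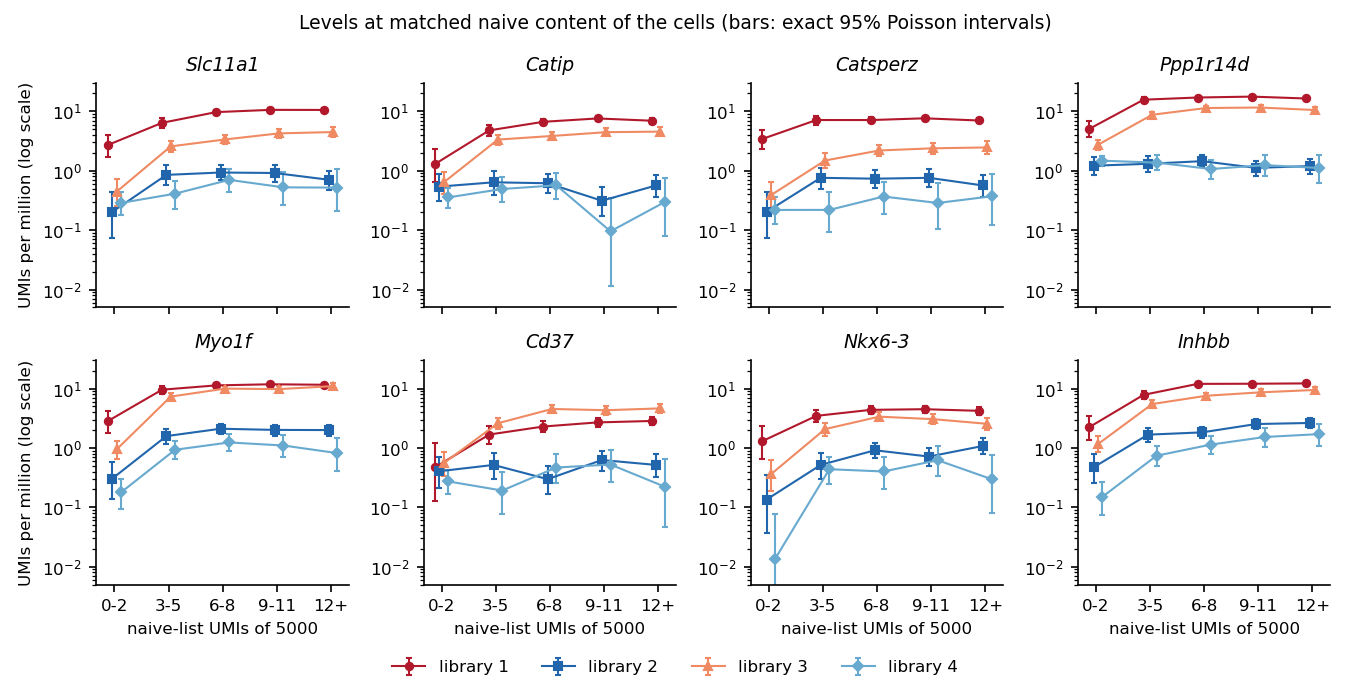
Level of each gene (CPM, log scale) in cells grouped by their naive-list UMIs among 5000, 1 line per library, with exact 95% Poisson intervals (1 bar, Nkx6-3 in library 4 at 0 to 2, runs below the axis). Libraries 1 and 3 lie above libraries 2 and 4, the contrast by which the genes were chosen, and the lines of Ppp1r14d in libraries 2 and 4 are flat.

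State dependence was measured inside each library, which does not use the contrast that chose the genes. Cells were ranked by their share of UMIs from the naive list and split into 3 equal groups (terciles), and the top tercile was set against the bottom one. The terciles are ranges of a continuous score, with 678 of 7893 cells of library 3 within 10% of the lower limit and 1641 within 10% of the upper one. Their median naive content was 2459.6 and 1373 CPM in library 1 but 1797 and 148 CPM in library 4, so the contrast was narrowest in library 1. The genes are described in 2 groups, formed after their values in libraries 2 and 4 were seen.

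Inhbb, Myo1f and Nkx6-3 were higher in the more naive cells in libraries 2 and 3 and in library 4. For Inhbb the top and bottom terciles held 12.8 and 8.62 CPM in library 1, 2.57 and 0.673 in library 2, 9.04 and 2.49 in library 3, and 1.59 and 0.129 in library 4. The ratios were 1.49-fold (1.32 to 1.67), 3.82-fold (2.73 to 5.45), 3.63-fold (3.02 to 4.37) and 12.3-fold (5.73 to 31.5). For Myo1f the ratios were 1.17-fold (1.04 to 1.32), 2.11-fold (1.57 to 2.86), 3.71-fold (3.14 to 4.4) and 14-fold (5.17 to 52.9), the last from 59 against 4 UMIs. For Nkx6-3 they were 1.26-fold (1.04 to 1.53) in library 1, 3.69-fold (2.06 to 7.03) in library 2 and 3.69-fold (2.7 to 5.11) in library 3, and library 4 held 33 UMIs in the top tercile and 1 in the bottom tercile. The dependence of these 3 genes was weakest in library 1 in every case.

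Slc11a1, Catip, Catsperz, Ppp1r14d and Cd37 were higher in the top tercile in library 3 and by at most 1.68-fold in library 1, and their intervals held 1 in libraries 2 and 4. For Ppp1r14d the ratios were 1.07-fold (0.969 to 1.17), 0.911-fold (0.649 to 1.28), 2.3-fold (2.0 to 2.65) and 0.759-fold (0.539 to 1.07) in libraries 1 to 4. The top and bottom terciles of library 2 held 1.06 and 1.16 CPM, and those of library 3 11 and 4.78 CPM. For Catip the ratios were 1.44-fold (1.24 to 1.69), 0.907-fold (0.548 to 1.5) and 3.05-fold (2.37 to 3.94) in libraries 1 to 3. For Cd37 they were 1.68-fold (1.3 to 2.17), 0.955-fold (0.548 to 1.66) and 3.76-fold (2.91 to 4.89). Slc11a1 gave 1.39-fold (1.22 to 1.57), 1.32-fold (0.801 to 2.19) and 4.04-fold (3.11 to 5.32), and Catsperz 1.08-fold (0.933 to 1.25), 1.48-fold (0.915 to 2.44) and 2.6-fold (1.87 to 3.65). Slc11a1, Catip, Catsperz and Cd37 had fewer than 50 UMIs in the terciles of library 4, where their ratios lay between 0.946 and 2.21 with intervals that held 1. In library 2 the interval of Inhbb lay above those of Catip, Ppp1r14d, Cd37, Slc11a1 and Catsperz, whose upper ends ran from 1.28 to 2.44, whereas those of Myo1f and Nkx6-3 overlapped with some of them. The top and bottom terciles do not show all of the dependence in library 2. Slc11a1 stood at 1.19 CPM (0.948 to 1.48) in the middle tercile there, against 0.459 (0.31 to 0.655) in the bottom one. In cells with 0 to 2 naive UMIs among 5000 Slc11a1 and Catsperz both stood at 0.203 CPM (0.0744 to 0.441), against 0.851 (0.566 to 1.23) and 0.76 (0.492 to 1.12) with 3 to 5.

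By the limit of 1.5-fold, 1 of 8 genes was higher in the top tercile in library 1 (Cd37, 1.7% of all genes tested), 3 of 8 in library 2 (6.47%), 8 of 8 in library 3 (9.94%) and 2 of the 3 with enough UMIs in library 4 (12.2%). The median log2 ratio of the 8 genes was 0.40, 0.48 and 1.87 in libraries 1 to 3, beside -0.03, -0.08 and -0.14 over all genes tested. With the naive share taken over naive plus formative UMIs, 5 of 8 genes passed in library 2 (7.62% of genes tested), and with top and bottom quartiles 4 of 8 passed in library 1 (2.98%). Median UMIs per cell were 18423 in the top and 21004 in the bottom tercile of library 3, and the part of this in the ratios was not tested.

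**Figure D3:**
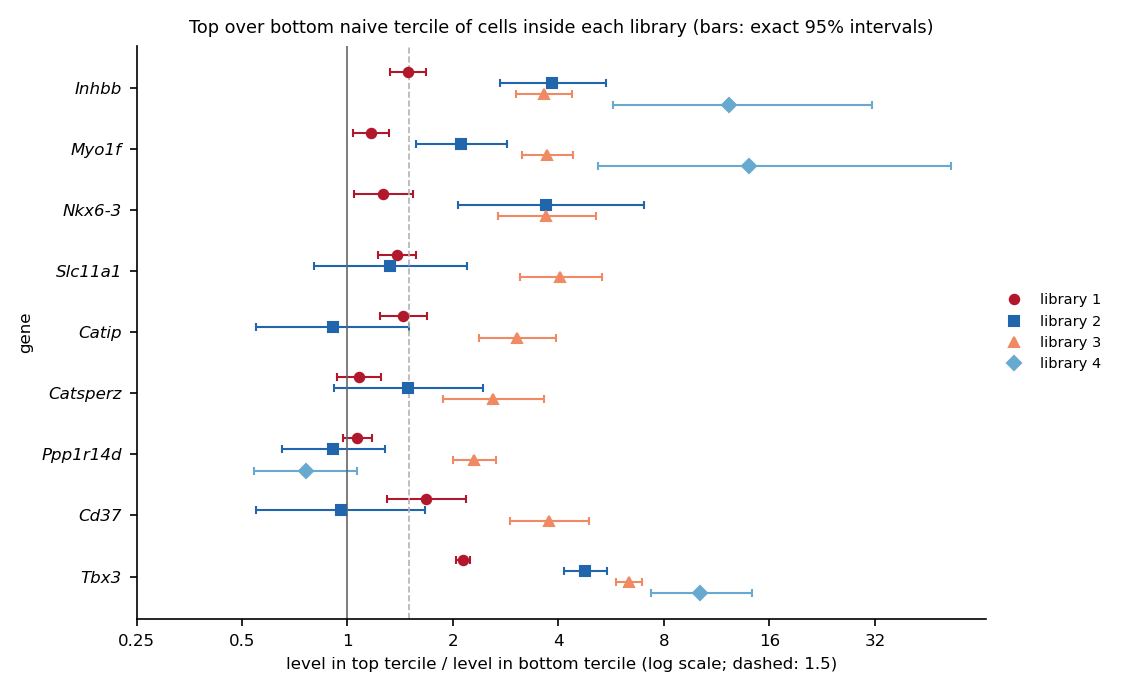
Level of each gene in the top over the bottom tercile of cells by naive share (log scale), 1 point per library, with exact 95% intervals of the ratio. Genes with fewer than 50 UMIs in the terciles of a library are not drawn. Inhbb and Myo1f lie right of 1 in every library and Nkx6-3 in the 3 libraries drawn, whereas Catip, Ppp1r14d and Cd37 lie near 1 in library 2.

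Among other states of these cultures, a pair of low naive content was examined, with median naive shares in library 3 of 290.2 CPM in keratin-positive and 299.96 CPM in formative cells against 1606 CPM in cells without the keratin signature. Cells with 5 or more UMIs of Krt8, Krt18, Krt7, Krt19, Tagln and Acta2 (keratin and contractile genes) among 5000 numbered 67, 52, 744 and 337 in libraries 1 to 4. In the 744 cells of library 3, Myo1f stood at 0.897 CPM against 8.64 in the other cells, Slc11a1 at 0.378 against 3.31, and Ppp1r14d at 3.02 against 9.83. The ratios were 0.104 (0.0623 to 0.163), 0.114 (0.049 to 0.226) and 0.308 (0.236 to 0.395). All 8 genes were at least 1.5-fold lower in these cells in library 3 (19.6% of genes tested) and in library 1 (25.3%), where the 67 cells held 0 to 2 UMIs of every gene but Ppp1r14d and the interval of Cd37 held 1. At 5000 UMIs, 1.08% of the keratin-positive cells of library 3 had a UMI of Ppp1r14d and 0.269% one of Myo1f, against 5.04% and 4.35% of the cells in neither state, at median depths of 24654 and 18974 UMIs. In library 4 Ppp1r14d gave a ratio of 1.19 (0.639 to 2.04) in the 337 keratin-positive cells, whereas Myo1f had 0 UMIs there against 118 in the other cells. There 2 of 6 genes were at least 1.5-fold lower (16.1% of genes tested), and the interval lay below 1 for Myo1f alone. The 52 cells of library 2 held 0 to 2 UMIs of each gene, and all 8 intervals held 1.

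Cells with 2 or more UMIs of Fgf5 and Pou3f1, which mark the formative state, numbered 102, 862, 453 and 1753. All 8 genes were at least 1.5-fold lower in them in library 1 (20.5% of genes tested) and in library 3 (13.9%). In library 2, 5 of 8 were lower (11.4%), namely Slc11a1, Myo1f, Cd37, Nkx6-3 and Inhbb, and in library 4, 3 of 6 (7.71%), where 1 of 6, Catip, was higher by that limit with an interval that held 1 (8.64%). The interval of Cd37 held 1 in libraries 1 and 2. In library 4 Inhbb stood at 0.237 (0.106 to 0.466) of its level in the other cells and Myo1f at 0.352 (0.176 to 0.642), while Ppp1r14d stood at 1.35 (1.01 to 1.8) and Catip at 1.52 (0.87 to 2.59). At these low levels free RNA captured with the cells cannot be told apart from expression, which holds for every flat ratio in libraries 2 and 4. Between the top and bottom terciles of cells by 14 G2/M genes, 0 of 8 genes in libraries 1 to 3 and 0 of the 4 with at least 50 UMIs in library 4 were 1.5-fold higher (4.86%, 3.24%, 4.65% and 3.23% of genes tested in libraries 1 to 4) and 1 of 8 was lower in library 2 (Catip, at 0.613, 2.6%), with an interval that held 1. Among the 4 genes with fewer UMIs in library 4, Nkx6-3 had 9 UMIs in the top and 19 in the bottom tercile, a ratio of 0.351 (0.14 to 0.813), and Cd37 gave 0.555 (0.264 to 1.14). In library 1 Catip gave 0.729 (0.629 to 0.847) and Slc11a1 0.734 (0.648 to 0.831), both below 1, and Ppp1r14d 1.15 (1.05 to 1.27), above 1. In library 3 Myo1f gave 1.33 (1.16 to 1.54), and the intervals of the other 7 genes there held 1.

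Co-expression with Tbx3 was measured by splitting the cells of each library into those with and those without a Tbx3 UMI at 5000 UMIs, which gave 2398, 392, 1155 and 133 positive cells. Slc11a1 held 12.8 CPM in positive and 8.13 in negative cells of library 1, 2.05 and 0.697 in library 2, and 5.38 and 2.57 in library 3. It was higher in the positive cells of each of these libraries, by 1.58-fold (1.42 to 1.74), 2.95-fold (1.72 to 4.78) and 2.09-fold (1.7 to 2.57). Catip followed with 1.38-fold (1.21 to 1.56), 2.39-fold (1.15 to 4.47) and 2.11-fold (1.73 to 2.55). Cd37 gave 1.28-fold (1.03 to 1.58), 1.92-fold (0.803 to 3.95) and 1.73-fold (1.41 to 2.12), the second resting on 8 UMIs in positive cells.

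Inhbb gave 1.14-fold (1.04 to 1.26), 2.25-fold (1.57 to 3.15) and 1.42-fold (1.21 to 1.66) in libraries 1 to 3. Myo1f did not differ beyond counting error in library 1, at 0.96-fold (0.865 to 1.06), and gave 1.47-fold (1.28 to 1.69) in library 3. Nkx6-3 gave 1.08-fold (0.916 to 1.28) and 1.13-fold (0.846 to 1.5) in libraries 1 and 3. Ppp1r14d gave 1.14-fold (1.05 to 1.24) and 1.37-fold (1.2 to 1.56), and Catsperz 1.21-fold (1.06 to 1.36) and 1.57-fold (1.16 to 2.08). In library 2 Catsperz gave 1.03 (0.371 to 2.31), Nkx6-3 1.05 (0.413 to 2.21) and Myo1f 1.01 (0.572 to 1.67), all near 1, and Ppp1r14d 1.58 (0.92 to 2.55). The intervals of Slc11a1 in library 1 lay above those of Catsperz, Ppp1r14d, Myo1f, Nkx6-3 and Inhbb. The 133 positive cells of library 4 held at most 5 UMIs of any of the 8 genes and could not order them.

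By the limit of 1.5-fold, 1 of 8 genes was higher in Tbx3-positive cells in library 1 (0.973% of genes tested), 5 of 8 in library 2 (4.69%), 4 of 8 in library 3 (3.12%) and 3 of 6 in library 4 (10.1%), where 1 of 6, Ppp1r14d, was lower by that limit (16.2%) at 0.497 (0.0599 to 1.82). The interval of the ratio lay above 1 for 6, 3, 7 and 0 genes in these libraries. No share over all genes is given for this count, which also depends on how many UMIs a gene has. With Tbx3 called at 10000 UMIs or on all UMIs of a cell, 7 of 8 passed in library 3 (3.56% and 3.71% of genes tested). Tbx3-positive cells were also the more naive ones, with median naive shares of 1861 and 1449 CPM in positive and negative cells of library 3. Inside the top naive tercile the counts were 0 of 8 in library 1 (1.16% of genes tested), 1 of 4 in library 2 (3.95%), 0 of 8 in library 3 (1.64%) and 0 of 3 in library 4 (7.15%). Slc11a1 still gave 1.4-fold (1.19 to 1.66) and 1.49-fold (1.12 to 1.97) there in libraries 1 and 3, and Catip 1.28-fold (1.04 to 1.58) and 1.5-fold (1.11 to 2.0). Inhbb gave 1.0-fold (0.855 to 1.18) and 0.865-fold (0.684 to 1.08), and Ppp1r14d 1.08-fold (0.937 to 1.24) and 0.97-fold (0.79 to 1.18). The interval lay above 1 there for 2 of 8 genes in library 1 and 3 of 8 in library 3. In library 3 these were therefore not only Slc11a1 and Catip, and no share over all genes is given.

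**Figure D4:**
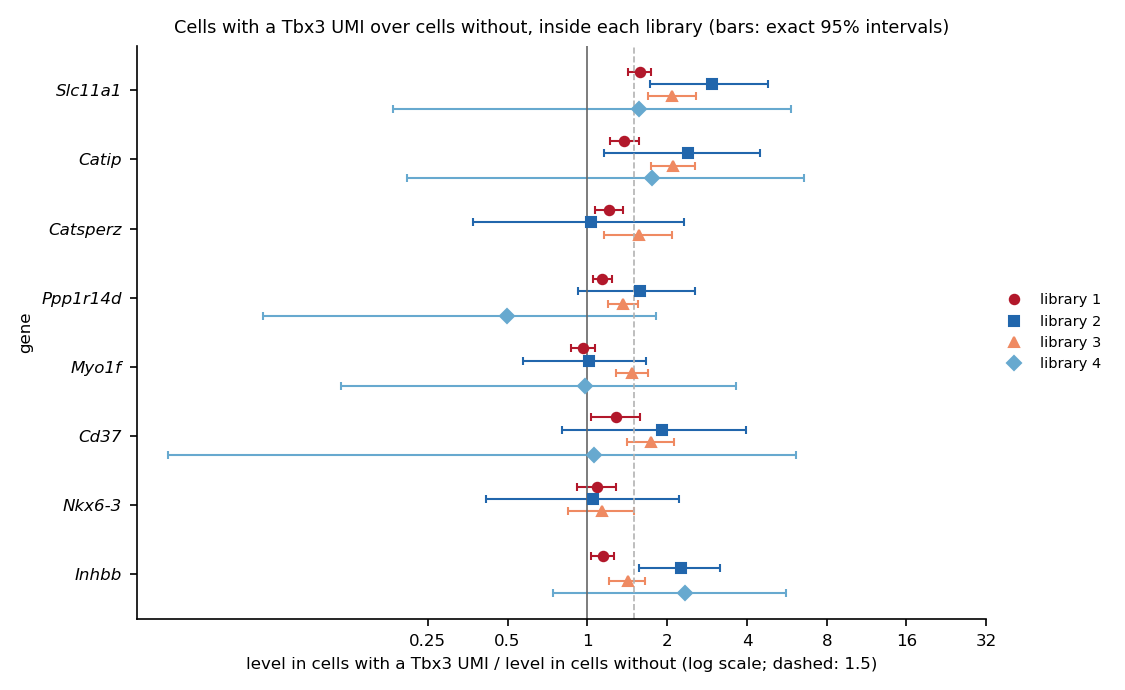
Level of each gene in cells with a Tbx3 UMI over cells without (log scale), 1 point per library, with exact 95% intervals. Genes with fewer than 50 UMIs in a library are not drawn. Slc11a1, Catip and Inhbb lie right of 1 in libraries 1, 2 and 3 with intervals clear of 1. Cd37, Ppp1r14d and Catsperz also lie right of 1 there, with intervals that hold 1 in library 2. Myo1f and Nkx6-3 in library 1 lie near 1 with intervals that hold 1.

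Of the 28 pairs that the 8 genes form, Slc11a1 and Catip stood out inside single cells. They are neighbours on chromosome 1, both on the plus strand, with Catip at chr1:74362108-74369321 and Slc11a1 at chr1:74375195-74386062 (GRCm38), 5874 bases apart. At 5000 UMIs, 42 cells of library 1 held both, 4.01 times (2.89 to 5.43) the product of the 2 shares, and 13 cells of library 3, 6.66 times (3.55 to 11.4). Library 2 had 3 such cells, where the product gives 0.0658. Catip stood at 21.4 CPM in cells with a Slc11a1 UMI and 5.9 in cells without in library 1, 3.63-fold (3.03 to 4.33) higher, and at 15.7 and 3.14 CPM in library 3, 5.01-fold (3.47 to 7.02) higher. By that ratio Catip ranked 4 of 13871 genes in library 1 and 3 of 14439 in library 3, where 3.68% and 6.23% of genes were at least 1.5-fold higher. In the other direction, Slc11a1 ranked 1 in cells with a Catip UMI in libraries 1 and 3 (where 4.08% and 6.84% of genes were 1.5-fold higher), at 4.44-fold (3.8 to 5.16) and 7.96-fold (5.95 to 10.5).

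The relation was graded. Without thinning, the Catip level of library 1 was 4.33 CPM (3.99 to 4.69) in cells with no Slc11a1 UMI, 14.5 (12.7 to 16.4) with 1, 26.5 (22.3 to 31.2) with 2 and 34.5 (27.7 to 42.4) with 3 or more, from 7057, 740, 213 and 108 cells. The last pair of intervals overlapped. Median UMIs per cell also differed between these classes, from 18091 to 22337, and their part in the relation was not tested. Inside the top naive tercile of cells Catip was 3.57-fold (2.66 to 4.71) and 3.72-fold (2.13 to 6.1) higher with a Slc11a1 UMI in libraries 1 and 3. Other genes of the locus were not raised to this extent. On the Catip side, Pnkd stood at 1.22 (1.14 to 1.31) and Tmbim1 at 1.41 (1.14 to 1.72) in library 1, and on the Slc11a1 side Ctdsp1 at 1.32 (1.07 to 1.62) and Usp37 at 1.08 (0.957 to 1.22). In library 3 Tmbim1 was lower, at 0.591 (0.33 to 0.977). The 2 genes lie head to tail, and whether a share of the tags counted for one stems from transcripts of the other was not tested.

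**Figure D5:**
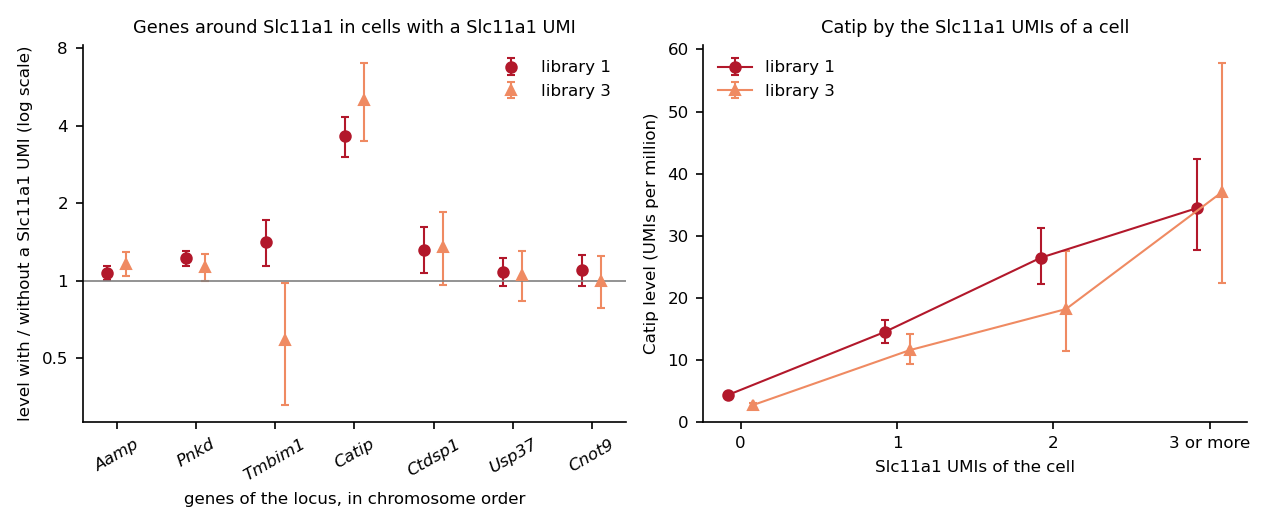
Left, level of 7 genes of the locus in cells with a Slc11a1 UMI over cells without (log scale), in libraries 1 and 3. Right, Catip level in CPM by the number of Slc11a1 UMIs of a cell, and bars in both plots are exact 95% intervals. Catip lies between 3.63 and 5.01 on the left while the other genes lie between 0.591 and 1.41, and the Catip level climbs with each Slc11a1 class on the right.

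The other pairs lay closer to the product of their shares. Next in libraries 1 and 3 came Catsperz and Myo1f in library 3, with 10 shared cells, 3.54 times (1.7 to 6.52) the product. In library 1 the same pair shared 9 cells, 0.714 times (0.326 to 1.36) the product, with an interval that held 1. With all UMIs of the cells counted, Myo1f stood at 1.24-fold (0.977 to 1.56) in cells with a Catsperz UMI in library 1. In library 3 it stood at 2.75-fold (1.85 to 3.94). Ppp1r14d and Inhbb shared 51 cells of library 1, 1.49 times (1.11 to 1.96) the product of the shares, and 19 of library 3, 1.71 times (1.03 to 2.67). Inside the top naive tercile of library 1, Inhbb stood at 1.53-fold (1.2 to 1.92) in cells with a Ppp1r14d UMI. In that tercile of library 3 it stood at 1.02-fold (0.665 to 1.51). The other way, Ppp1r14d stood at 1.16-fold (0.881 to 1.5) and 1.33-fold (0.886 to 1.92). Slc11a1 and Inhbb shared 27 cells of library 1, 1.52 times (1.004 to 2.22) the product, and 3 of library 3, 0.879 times (0.181 to 2.57). Catip and Myo1f shared 13 cells of library 3, 2.43 times (1.3 to 4.16), and Slc11a1 and Myo1f 11 cells, 2.62 times (1.31 to 4.69). There Catsperz and Ppp1r14d shared 9 cells, 2.68 times (1.23 to 5.09), and Myo1f and Inhbb 18 cells, 1.93 times (1.14 to 3.04). The intervals of these pairs with Myo1f, and of Catsperz with Ppp1r14d, held 1 in library 1. For Cd37 and Myo1f in library 1, Myo1f stood at 5.58 CPM in cells with a Cd37 UMI and 11 in cells without, a ratio of 0.509 (0.263 to 0.892), from 12 UMIs in 109 cells. In library 3 that ratio was 1.02 (0.654 to 1.53), and inside the top naive tercile of library 1 it was 0.92 (0.419 to 1.76). The other way, the ratio of Cd37 in cells with a Myo1f UMI was 0.507 (0.241 to 0.942) in library 1. It was 0.406 (0.0827 to 1.21) inside the top naive tercile of library 1 and 0.724 (0.411 to 1.19) in library 3.

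The genes lie on chromosomes 1, 2, 7, 8, 17 and 19, and the 5 nearest genes on each side were read in the same way. Of the 80 neighbour slots, 65 held a gene with at least 100 UMIs, 27 of those had their 2 highest levels in libraries 1 and 3, and 6 passed the 2-fold limit, Catip and Slc11a1 for each other among them. Without the 8 genes and counting each gene once, 22 of 56 neighbours (39.3%) had libraries 1 and 3 on top and 4 (7.14%) passed the 2-fold limit, beside 24.2% and 1.67% of all genes. Kcnk4, a potassium channel gene that overlaps Catsperz on the same strand, stood at 1.45, 0.48, 1.59 and 0.592 CPM in libraries 1 to 4, and tags from the shared stretch cannot be told apart. Beside Cd37, Ccdc155 stood at 2.65, 0.559, 1.25 and 0.615 CPM, Dkkl1 at 0.755, 0.22, 0.899 and 0.339 CPM and Slc6a16 at 1.05, 0.31, 1.28 and 0.396 CPM. Tead2, which overlaps the end of Cd37 on the opposite strand, stood at 54.1, 62.6, 71.1 and 90.6 CPM, highest in library 4 and lowest in library 1. Spint1 beside Ppp1r14d stood at 53.3, 23.6, 38 and 25.1 CPM, and Gchfr on its other side at 1.05, 5.79, 4.67 and 10.7 CPM. Tfcp2l1, a naive factor near Inhbb, stood at 98.8, 79.5, 66.7 and 30.6 CPM, higher in library 2 than in library 3.

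Related genes of Slc11a1, Ppp1r14d, Myo1f, Cd37 and Nkx6-3, and the partner of Catip, were read in the same way, and 0 of them reached the 2-fold limit. Slc11a2, the widely used iron transporter related to Slc11a1, stood at 5.02, 9.45, 5.9 and 9.71 CPM in libraries 1 to 4, lower in libraries 1 and 3. Ppp1r14a and Ppp1r14b stood at 16.7, 28.3, 19 and 29 CPM and at 431, 665, 493 and 645 CPM. Of 7 other class I myosin genes, 0 passed the 2-fold limit, with Myo1e at 9.49, 17.9, 15.3 and 22.7 CPM. Of 11 other tetraspanin genes, 0 passed it, with Cd9 at 277, 225, 206 and 161 CPM and Cd63 at 183, 115, 243 and 118 CPM. Nkx6-2 stood at 7.23, 5.08, 7.0 and 3.43 CPM and Ttc17, the partner of Catip, at 5.41, 3.77, 5.83 and 4.06 CPM. Both had libraries 1 and 3 on top by less than 2-fold. So did the tetraspanin genes Cd63, Cd81, Cd151 and Tspan32 and the myosin gene Myo1g (1.79, 0.954, 1.08 and 0.448 CPM). The other related genes did not have libraries 1 and 3 on top. Counts of 0 passing genes stand against 1.67% over all genes.

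Markers of the cells in which some of the genes are best known were partly detected. Of 14 leukocyte markers, 8 had at least 100 UMIs. The other 6, Ptprc, Cd53, Tyrobp, Csf1r, Lyz2 and Adgre1, lay at or below 0.0689 CPM in every library. The list summed to 79.96, 38.5, 53.8 and 26.5 CPM, most of it from the lysosomal membrane genes Laptm5 (55.8, 21.1, 36.9 and 10.1 CPM) and Cd68 (16.4, 7.0, 8.8 and 4.84 CPM). Spi1, the myeloid factor PU.1, was the only one of these 8 past the 2-fold limit (1.67% of all genes), at 0.983, 0.24, 0.708 and 0.282 CPM, and Coro1a ran the other way at 2.87, 5.82, 4.07 and 7.57 CPM. The lymphocyte receptor genes Cd3e and Cd79a stood at 2.66, 1.94, 2.09 and 1.22 CPM and at 0.683, 2.09, 0.766 and 2.02 CPM. Of 11 CatSper channel genes, Catsper1 and Catsperb were at 0 and 3 had at least 100 UMIs. Of these 3 Catsper2 passed the 2-fold limit (1.67% of all genes), at 3.06, 1.15, 3.32 and 1.37 CPM, with Catsperd at 3.61, 1.57, 1.4 and 0.764 CPM. The sperm genes Prm1, Prm2, Tnp1 and Acrv1 lay at or below 0.0172 CPM. Of 10 germ cell genes, 6 had at least 100 UMIs, of which Sycp3, a meiotic chromosome protein, stood at 234, 84.8, 170.2 and 91 CPM and Ddx4 at 12.7, 11.4, 18.2 and 13.3 CPM. Fibroblast, primitive endoderm and trophectoderm markers summed to at most 12.3, 11.1 and 55.7 CPM in a library, and none of their genes passed the limit (1.67% of all genes).

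Inhbb is a ligand subunit of the activin and nodal pathway, in which ligands bind type II and type I receptors, cripto (Tdgf1) serves as co-receptor, and SMAD proteins carry the signal. Of 22 other genes of the pathway, 20 had at least 100 UMIs and 0 passed the 2-fold limit, which 1.67% of all genes passed. Inhba, the beta A chain, stood at 0.0599, 0.045, 1.15 and 0.241 CPM and Inha, the inhibin alpha chain, at 0.18, 0.19, 0.186 and 0.23 CPM, so Inhbb was the leading inhibin or activin chain in every library. Among ligands, Nodal stood at 33.9, 22.1, 27.1 and 11.8 CPM and Gdf3 at 134, 92.4, 107 and 71.4 CPM. Both had libraries 1 and 3 on top, by less than 2-fold. Among receptors, Acvr2b stood at 42.9, 51.9, 44 and 59.98 CPM and Tdgf1 at 643, 461, 569 and 478 CPM. The inhibitors and targets went several ways, with Lefty2 at 21.5, 54.1, 11.4 and 18.8 CPM, Smad7 at 139, 95.7, 109 and 70.9 CPM and the activin-binding follistatin Fst at 3.7, 5.77, 7.53 and 10.6 CPM. 3′ tags count molecules, so levels of different genes were compared here without a correction for length.

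Genes with the most similar patterns were sought over 12 pools, the 3 naive terciles of each of the 4 libraries, by the Pearson correlation of log2(CPM + 1). The pools of a library share their culture and sequencing run, and r is given as a description. The pools also span the contrast of libraries that chose the 8 genes, so high r among these genes, and with Tbx3, follows in part from that choice. Slc11a1 was most like Gdf15 (r = 0.99), Mrnip (r = 0.99) and Ampd3 (r = 0.99). Catsperz was also most like Gdf15 (r = 0.99), a stress-responsive cytokine gene, followed by Rgs9 (r = 0.99) and Slc11a1. Catip was most like Rtn1 (r = 0.99), Hist2h3c2 (r = 0.99) and Ppp1r14d (r = 0.99), and Ppp1r14d like Echs1 (r = 0.99), Syngr4 (r = 0.99) and Catip. Nkx6-3 was most like Inhbb (r = 0.99), Poc1a (r = 0.99) and Ints4 (r = 0.99), and Inhbb like Pex16 (r = 1.00), Ints4 (r = 0.99) and Nsmce1 (r = 0.99). Myo1f was most like Hsd3b7 (r = 0.99), Mrps31 (r = 0.99) and Rpl8 (r = 0.99), and Cd37 like Gm14329 (r = 0.98), Gm13889 (r = 0.98) and Washc1 (r = 0.98). Tbx3 ranked 10 among 15821 genes for Inhbb, 74 for Nkx6-3 and 150 for Myo1f, but 450 for Slc11a1 and 1011 for Ppp1r14d. Between 262 and 809 genes had r above 0.9 with a given one of the 8, so high values were common. Several of the listed genes differed far less between libraries than the gene they resembled, such as Rpl8 at 5849, 4713, 5415 and 4235 CPM.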

How the data were processed

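The authors deposited UMI counts per gene and cell barcode for 4 libraries in 1 joined matrix. According to the methods of the study and the submitters' processing notes, reads were counted with Cell Ranger 6.1.2 against mm10 and joined with its default aggregation, which subsamples reads so that libraries reach similar depth, so totals do not reflect the original sequencing depth. Whether counting used strand is not given in the sources used here. The cell filter of the study was applied (UMIs and detected genes at least the library mean minus 1 SD, mitochondrial share at most 10%). No doublet caller was run, and leaving out the 1615 cells above 2 times their library's median UMIs was an alternative. Library numbers could not be tied to samples, so no p-value was computed.

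Counts were summed over cells of a library or state and divided by their total. Intervals were exact, at 95%, from the Poisson distribution for levels and their ratios and from Clopper-Pearson for shares of cells. A gene was tested between libraries from 100 UMIs over all kept cells and between cell states from 50 UMIs, with limits of 2-fold and 1.5-fold. Cells were thinned without replacement to 5000 UMIs to call detection. The genes named are the 8 genes, Tbx3 and Srrm2, the 5 nearest genes on each side, list genes above 5 CPM or past the limit, the 3 genes most like each of the 8, and a few other markers of the lists, chosen after their values were seen. The 8 genes and all lists were chosen with earlier results of these data known. Positions came from GENCODE on mm10 (32158 of 32285 genes matched) and upstream sequences from RefSeq. The scripts were tested on simulated data and ran in Python 3.11.15 with NumPy 2.4.6, SciPy 1.17.1, pandas 2.3.3 and matplotlib 3.10.9.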

Additional observations from a re-analysis of the deposited data

How the results depend on the processing

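The 8 genes had libraries 1 and 3 at least 2-fold on top under every alternative run. This is the contrast that chose them, so it adds no support. The number of all genes with libraries 1 and 3 on top, 265 as reported (1.67% of genes tested), was 715 at 1.5-fold and 76 at 3-fold. It was 692 with no minimum count and 131 with a minimum of 1000 UMIs. No share of genes tested is given for these alternative counts. Catsperz, at 2.8-fold (2.27 to 3.48), did not reach the limit of 3-fold. Of the 8 genes, those at least 1.5-fold higher in Tbx3-positive cells numbered 2 in library 1 and 7 in library 3 with Tbx3 called at 10000 UMIs (1.16% and 3.56% of genes tested). With Tbx3 called on all UMIs they numbered 2, 3, 7 and 1 in libraries 1 to 4 (1.74%, 2.52%, 3.71% and 6.62% of genes tested). In the top naive tercile they numbered 0, 1, 0 and 0 (1.16%, 3.95%, 1.64% and 7.15% of genes tested). There the ratios of Ppp1r14d (0.970) and Inhbb (0.865) in library 3 changed direction. So did those of Nkx6-3 in libraries 1 and 3 (0.863 and 0.994), whose intervals held 1 before and after. Without cells above 2 times the median UMIs the number in library 4 was 1 (10.8% of genes tested). By naive content, 2 genes in library 1 and 5 in library 2 passed with the share taken over naive plus formative UMIs (1.73% and 7.62%). With quartiles, 4 passed in library 1 and 1 in library 4 (2.98% and 12.1%). The cause of these changes was not tested. Leaving out cells whose barcode was kept in more than 1 library was chosen after seeing the data. No paired analysis was possible because the library numbers carry no sample. For the same reason the comparison of Srrm2 hKO with WT and the leaving out of replicates were not run. The 8 genes had 46 to 231 UMIs each in library 4, which leaves wide intervals there.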

Other observations

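Genes outside the 8 were also highest in libraries 1 and 3, and some are named here after their values were seen. Tarm1, a receptor gene of myeloid cells, stood at 3.0, 0.23, 2.39 and 0.259 CPM in libraries 1 to 4. Dclk3, a doublecortin-like kinase gene, stood at 1.74, 0.19, 1.49 and 0.213 CPM, and Dock10, a guanine nucleotide exchange factor gene, at 0.503, 0.020, 0.336 and 0.023 CPM. Tbx3os2, a transcript named for its place opposite Tbx3, stood at 0.947, 0.0649, 0.36 and 0.0402 CPM and Sox1, a neural transcription factor gene, at 1.04, 0.19, 1.91 and 0.201 CPM. The replication-dependent histone gene Hist2h3c2, which was also among the genes most like Catip, stood at 2.33, 0.185, 1.11 and 0.109 CPM. These 6 genes had 150 to 1003 UMIs over all kept cells, fewer than any of the 8 genes, and their dependence on cell state was not examined.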
